A study of Mus musculus with 15 samples.

Results

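The genes described here are 46 genes of mitosis and the spindle checkpoint, out of 23329 genes counted, in 15 mouse tumors. They were listed by what their products do, as mitotic kinases and their regulators, centromere and kinetochore proteins, checkpoint proteins, motors and cytokinesis factors. No threshold on the values was applied. All 46 were among the 14880 genes with enough reads to be tested, and each was read in every tumor, the lowest value being 5.08 CPM (counts scaled to the library size) for Pttg1.

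RNA was sequenced from 4 EμMyc and 3 EμMyc/Casp2-/- lymphomas, taken from the cervical nodes of C57BL/6 mice, and from 4 Th-MYCN and 4 Th-MYCN/Casp2-/- neuroblastomas from paraspinal thoracic sites of Sv129/C57BL6 mice, 1 tumor a mouse. No group was treated. Every mouse carried a MYC family transgene, so no normal tissue serves as a reference. EμMyc drives Myc from the immunoglobulin heavy chain enhancer in the B lineage, Th-MYCN drives MYCN from the tyrosine hydroxylase promoter in cells of the sympathetic lineage, and Casp2-/- is a germline deletion of caspase-2. Tumor onset was at 13, 13, 13 and 19 weeks in the EμMyc mice and at 9, 8 and 12 weeks in the EμMyc/Casp2-/- mice. It was at 21, 13, 10 and 15 weeks in the Th-MYCN mice and at 15, 18, 24 and 15 weeks in the Th-MYCN/Casp2-/- mice. Values listed for a group are in the order of its replicates. Tumor type, tissue and strain cannot be told apart, and neither can genotype and onset among the lymphomas, where no EμMyc/Casp2-/- tumor arose as late as any EμMyc tumor. The neuroblastomas had been selected for absent or reduced blood vessels.

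Mitosis begins when CDK1 with its cyclins is switched on by CDC25 phosphatases. Aurora and Polo kinases then build the spindle, kinetochores tie chromosomes to microtubules, and the spindle assembly checkpoint holds back the anaphase-promoting complex until each chromosome is attached. Errors in these steps leave cells with the wrong number of chromosomes or centrosomes. Caspase-2 is a protease known for removing such cells, so the question put to the tumors was whether the transcripts of the mitotic machinery differed when caspase-2 was missing, and whether they differed between the tumor types.

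The libraries held 4940464 to 17638029 reads in the counted column, and the smallest library was EμMyc/Casp2-/- replicate 1 (tumor EuMycC2ko215). The 6 B cell markers summed to 1890 to 4710 CPM in the lymphomas and to 4.18 to 14.1 CPM in the neuroblastomas, and 6 sympathetic neuroblast markers to 1940 to 2950 CPM in the neuroblastomas and 0.945 to 13.7 CPM in the lymphomas. Casp2 itself was at 167, 125, 203 and 139 CPM in EμMyc and 58, 51.9 and 76.1 CPM in EμMyc/Casp2-/- tumors, for which the log2 fold change was -1.35 (SE 0.266, LRT FDR 4e-04). In the neuroblastomas it was at 125, 93.3, 76 and 106 CPM and at 80.2, 57.7, 39.6 and 54.5 CPM without the gene, a change of -0.79 (SE 0.245, LRT FDR 0.101). Thus the groups were apart in the lymphomas and overlapped in the neuroblastomas. Reads are counted over all exons, with the deleted part not separated. EμMyc/Casp2-/- replicate 1 stood apart in its T cell markers, whose 8 genes summed to 1060 CPM there and to 5.26 to 118 CPM in the other 14 tumors. Throughout, LRT FDR and QLF FDR are the Benjamini-Hochberg adjusted p of edgeR's likelihood ratio and quasi-likelihood tests over all tested genes, a gene was called at an LRT FDR under 0.05, and a DEG also had to differ by over 2-fold.

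The 46 genes together took 0.689% to 0.981% of the reads of a tumor. Their summed level was 9382 ± 631 CPM in EμMyc (SD, n = 4), 8337 ± 1500 CPM in EμMyc/Casp2-/- (n = 3), 8015 ± 527 CPM in Th-MYCN (n = 4) and 7985 ± 1080 CPM in Th-MYCN/Casp2-/- tumors (n = 4). The ranges of the genotypes overlapped in each tumor type, and those of EμMyc and Th-MYCN tumors met at 8530 CPM. These are bulk tumors, in which fewer dividing cells and less RNA per dividing cell cannot be told apart.

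Per kilobase of exon, the genes spanned a wide range in each group. The proliferation antigen Mki67 led in the EμMyc tumors at a mean of 132 CPM per kb, followed by topoisomerase Top2a at 123, cyclin A2 (Ccna2) at 113 and the anaphase activator Cdc20 at 109. In the Th-MYCN tumors the ubiquitin-conjugating enzyme Ube2c led at 105 CPM per kb, with Ccna2 at 104, Top2a at 94.5 and Cdc20 at 93. The kinesin Kif18a was lowest of the 46 in all 4 groups, at 3.24 to 3.73 CPM per kb. The order of the genes was not tested. Ccna2 shares 12.5% of its exon bases with Exosc9 on the opposite strand, and the libraries do not mark strand. Of its reads, 22.2% were left out of the count over either strand, so its level can include reads of Exosc9.

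**Figure D1:**
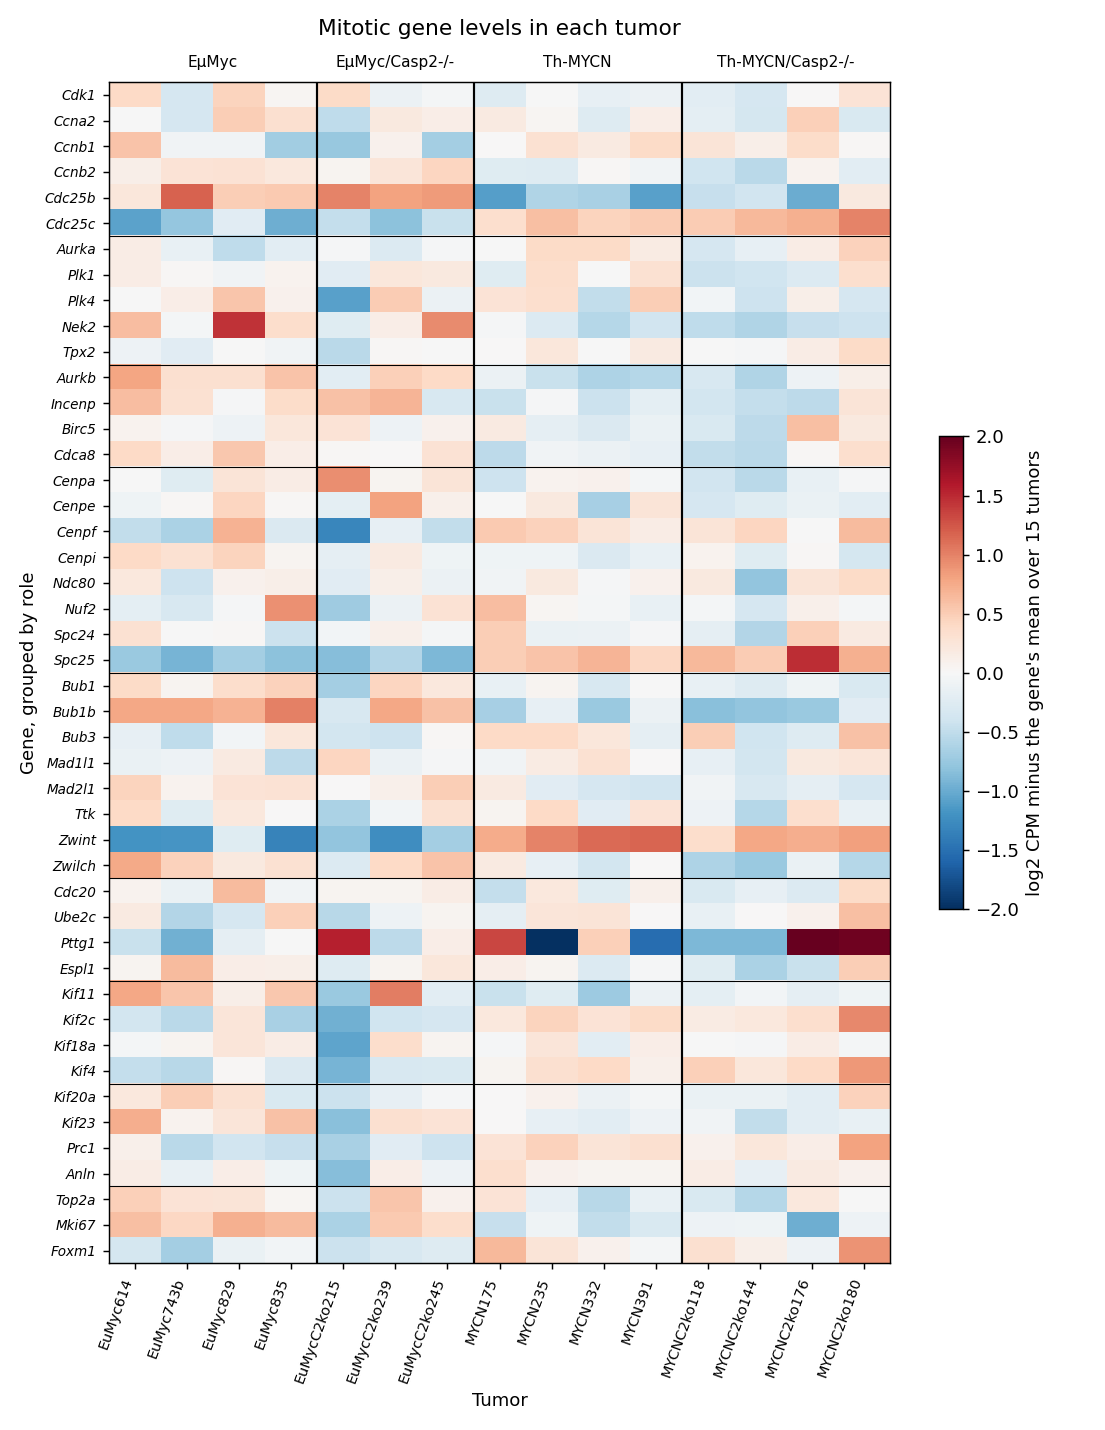
Level of each of the 46 genes (rows, grouped by role) in each of the 15 tumors (columns, grouped by genotype), as log2 CPM minus the gene's mean over all tumors. Colors stop at 2 in either direction, which Pttg1 passes. Cdc25b and Bub1b are mostly red in the lymphomas and blue in the neuroblastomas, Cdc25c, Spc25 and Zwint the reverse, and most rows show no block by genotype.

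The choice of the members did not use sequence, and their promoters were searched for known motifs. Genes that peak in mitosis are known for a cell cycle homology element near the start site, which binds the MuvB complex, and for CCAAT boxes bound by NF-Y. RefSeq promoters of 300 bases on GRCm38.p6, from 250 bases before the start to 50 after it, were at hand for 37 of the 46 genes, with 40 promoters among them. Ccna2, Cdc25c, Tpx2, Aurkb, Incenp, Spc24, Zwilch, Kif20a and Foxm1 had none in the table. On either strand, TTTGAA stood in 25 of the 40 promoters (62.5%) and in 17.9% of all 32851 promoters, and TTTAAA in 11 (27.5%) against 13.2%. CCAAT stood in 29 (72.5%) against 37.4%, and the MYC-type E-box CACGTG in 4 (10%) against 7.15%. The first 2 motifs are the forms of the homology element that were searched, and at least 1 of them together with CCAAT was found in 25 promoters (62.5%) against 10.7%. A CCAAT box can share its last base with a homology element. CCAAT boxes on opposite strands can share 2 bases, as those at -186 and -183 in Ube2c do, and no other pair of these motifs can overlap. The 61 CCAAT matches had a median position of -62 from the start site and the 42 matches of the homology element one of -17. Bub3 and Prc1 each gave 2 promoters that held the same matches at the same spacing. A site of these genes can thus be counted more than once in the shares and positions. A match describes the letters in the window and does not show that the site is used.

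The promoters of 6 members are shown, 5′ to 3′ along the gene, with every match to these motifs on either strand in capitals. Plk1 and Cdc20 stand for members with similar levels in both tumor types, Bub1b and Cdc25b for those higher in lymphoma, and Spc25 and Zwint for those higher in neuroblastoma.
Plk1 (chr7:122159185-122159484, plus strand): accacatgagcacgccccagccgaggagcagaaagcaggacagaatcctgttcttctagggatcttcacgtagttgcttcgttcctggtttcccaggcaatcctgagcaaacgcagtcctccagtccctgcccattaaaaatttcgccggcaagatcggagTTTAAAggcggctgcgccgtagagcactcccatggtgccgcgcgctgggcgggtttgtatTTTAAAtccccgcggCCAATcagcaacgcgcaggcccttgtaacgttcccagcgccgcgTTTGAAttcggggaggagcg
Cdc20 (chr4:118437294-118437593, minus strand): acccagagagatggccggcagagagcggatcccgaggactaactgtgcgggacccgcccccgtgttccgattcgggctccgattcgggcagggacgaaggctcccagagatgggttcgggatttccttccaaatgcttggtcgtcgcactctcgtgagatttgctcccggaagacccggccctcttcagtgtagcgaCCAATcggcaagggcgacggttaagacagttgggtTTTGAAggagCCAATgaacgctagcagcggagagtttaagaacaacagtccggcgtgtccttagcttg
Bub1b (chr2:118597961-118598260, plus strand): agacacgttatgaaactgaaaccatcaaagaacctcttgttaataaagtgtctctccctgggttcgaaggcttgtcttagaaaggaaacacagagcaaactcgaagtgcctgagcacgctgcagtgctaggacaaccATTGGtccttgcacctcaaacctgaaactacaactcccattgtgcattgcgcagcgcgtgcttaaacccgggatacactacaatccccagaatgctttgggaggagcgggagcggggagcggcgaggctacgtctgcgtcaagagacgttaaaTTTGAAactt
Cdc25b (chr2:131186698-131186997, plus strand): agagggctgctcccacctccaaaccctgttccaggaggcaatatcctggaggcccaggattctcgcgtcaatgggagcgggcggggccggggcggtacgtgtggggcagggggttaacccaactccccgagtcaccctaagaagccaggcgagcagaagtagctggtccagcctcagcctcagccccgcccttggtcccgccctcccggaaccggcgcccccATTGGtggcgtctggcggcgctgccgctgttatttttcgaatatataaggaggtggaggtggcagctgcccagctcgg
Spc25 (chr2:69206164-69206463, minus strand): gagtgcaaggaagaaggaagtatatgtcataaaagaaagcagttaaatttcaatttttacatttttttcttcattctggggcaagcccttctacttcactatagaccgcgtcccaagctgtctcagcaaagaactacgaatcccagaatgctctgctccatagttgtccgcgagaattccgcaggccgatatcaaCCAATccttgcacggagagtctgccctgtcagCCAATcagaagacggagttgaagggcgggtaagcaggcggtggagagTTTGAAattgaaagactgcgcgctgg
Zwint (chr10:72654596-72654895, plus strand): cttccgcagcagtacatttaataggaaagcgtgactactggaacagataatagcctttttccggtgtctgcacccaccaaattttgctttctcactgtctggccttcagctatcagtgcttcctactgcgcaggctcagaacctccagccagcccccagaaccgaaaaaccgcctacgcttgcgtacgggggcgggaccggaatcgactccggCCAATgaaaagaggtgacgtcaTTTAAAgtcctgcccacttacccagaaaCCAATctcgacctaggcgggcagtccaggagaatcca

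Each of the 6 held at least 1 CCAAT box, and all but Cdc25b held a homology element. Plk1, with its TTTAAA at -89 and -29 and its TTTGAA at 30, held 3 elements, whereas Cdc25b held only a CCAAT box, at -28 on the minus strand. Promoters with both features thus occurred among genes that were higher in lymphoma, higher in neuroblastoma and alike in both. Of the other promoters in the table, those of Nuf2, Mad2l1, Pttg1 and Kif18a held none of the 4 motifs.

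**Figure D2:**
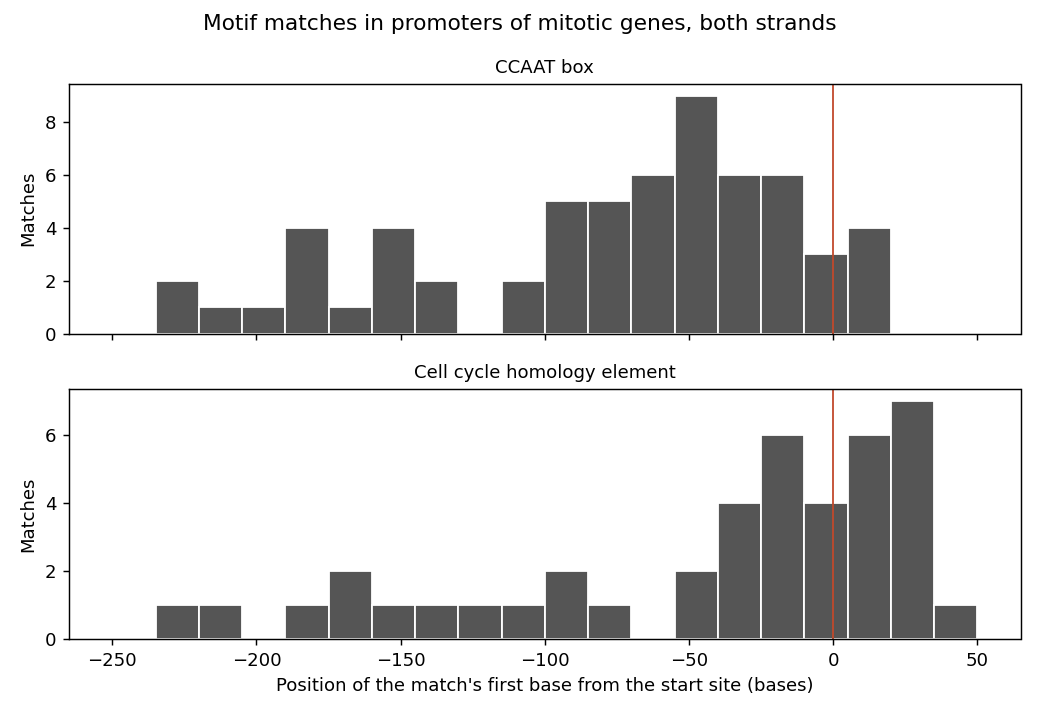
Number of CCAAT boxes (top, 61 matches) and of cell cycle homology elements (bottom, 42 matches) by position from the start site, in bases, over the 40 promoters of 37 mitotic genes. The red line marks the start site. CCAAT matches are most frequent upstream of it, with a median at -62, and the homology elements around it, with a median at -17.

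In the neuroblastomas, no transcript of the 46 was shown to differ with Casp2. None of the 46 was called by the LRT when Th-MYCN/Casp2-/- tumors were set against Th-MYCN, where 0.894% of all tested genes were called, none by QLF, where 0.0336% were, and none by DESeq2. At these shares few calls could fall in 46 genes. At an unadjusted LRT p under 0.05 there were again 0 members, against 7.78% of all genes, and 0 members had groups that did not overlap, against 6.62%. The smallest LRT FDR of a member was 0.683. The median log2 fold change over the 46 was -0.024, beside -0.002 over all genes, with 21 members above 0, 45.7% beside 49.5% of all genes. The median size of a change was 0.108 among members and 0.217 among all genes. Here and below, the background of all tested genes was not matched to the members by level. For 45 of the 46 the 95% interval of the fold change lay within 2-fold in either direction, with Pttg1 as the exception. Such intervals, here and below, take the fitted spread between tumors as known and can be too narrow with so few tumors. They were not counted over all genes.

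The 4 members with the smallest p were Cdc25b, Zwilch, Spc25 and Zwint. Cdc25b, the phosphatase that starts CDK1 activation, was at 67.3, 95.2, 91.4 and 67.9 CPM in Th-MYCN and at 105, 110, 72.2 and 165 CPM in Th-MYCN/Casp2-/- tumors. All Casp2-/- tumors but replicate 3 lay above the Th-MYCN range, for a log2 fold change of 0.49 (SE 0.259, LRT FDR 0.683). Zwilch, a subunit of the kinetochore complex that recruits dynein, had -0.43 (SE 0.229, LRT FDR 0.7), with 68.6, 54, 46.9 and 61 CPM against 39.5, 36.2, 55 and 40.7 CPM. Zwilch shares exon sequence with Lctl on the opposite strand and the libraries do not mark strand, and with shared reads left out its change was -0.46 (LRT FDR 0.738). Spc25, an Ndc80 complex subunit, had 0.35 (SE 0.208, LRT FDR 0.811), and its highest value, 258 CPM in Th-MYCN/Casp2-/- replicate 3, stood well above the next, 152 CPM. Zwint, which anchors the Zwilch complex to the kinetochore, had -0.34 (SE 0.243, LRT FDR 0.922).

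By role, the median log2 fold change in the neuroblastomas lay between -0.19 for the Aurora, Polo and NIMA kinases with Tpx2 (5 genes) and 0.18 for the spindle kinesins (4 genes). All 8 checkpoint genes had values at or below -0.05, from -0.43 to -0.05, and none passed the test. The widest interval belonged to securin (Pttg1), the inhibitor of separase, at 0.99 (95% interval -0.46 to 2.43, LRT FDR 0.939). Endothelial markers moved between the same groups, with sums over 6 genes of 51.6 to 77.5 CPM in Th-MYCN and 20.5 to 33.3 CPM in Th-MYCN/Casp2-/- tumors. Kdr and Pecam1 of these were called lower by the LRT and 0 of the 6 by QLF, and their part in the members' values was not tested. In each of the 8 fits that left out 1 tumor, 0 members were called, beside 31 to 200 of all genes.

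In the lymphomas the result was alike, with 0 of the 46 called between EμMyc/Casp2-/- and EμMyc tumors by the LRT, beside 1.50% of all genes, 0 by QLF, beside 0.141%, and 0 by DESeq2. At these shares, too, few calls could fall in 46 genes. No member had an unadjusted LRT p under 0.05, against 9.89% of all genes, and 0 members had groups without overlap, against 3.70%. The smallest LRT FDR was 0.572. The interval lay within 2-fold for 44 of the 46, the exceptions being Pttg1, at 1.02 (95% interval -0.55 to 2.58), and the kinetochore protein Cenpf, at -0.50 (-1.13 to 0.13). The median log2 fold change was -0.154 over members and -0.027 over all genes, and 14 members were above 0, 30.4% beside 46.1% of all genes. With sex as a covariate the members' median was -0.086. It was -0.247 to -0.064 when a single tumor other than EμMyc/Casp2-/- replicate 1 was left out.

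That shift changed most when EμMyc/Casp2-/- replicate 1 was left out, the tumor with the high T cell markers and the fewest reads. The mean level of the 46 genes was 6.74 on the log2 CPM scale in this tumor and 7.12 and 7.09 in the other EμMyc/Casp2-/- tumors, against 6.96 to 7.23 in the EμMyc tumors. It was the lowest of its group in 33 of the 46 genes. Without it the median log2 fold change was 0.013, 26 members were above 0 and again 0 were called, beside 77 of all genes. Across the tested genes its deviation from the group mean also fell with the length of the gene (Spearman's rho -0.22, and -0.47 across the members), a description across genes of 1 library. Trends of this size were not limited to it, with rho at 0.25 and 0.39 in EμMyc/Casp2-/- replicate 2 and at 0.21 and 0.57 in Th-MYCN/Casp2-/- replicate 1. The part of the T cell RNA, the depth and the length trend in these levels was not tested.

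The members with the smallest p in the lymphomas were Kif20a and Kif23, motors of the central spindle, and Cenpa and Cenpi of the centromere. Kif20a was at 268, 325, 287 and 188 CPM in EμMyc and at 172, 206 and 227 CPM in EμMyc/Casp2-/- tumors, and its log2 fold change was -0.40 (SE 0.222, LRT FDR 0.572). It shares 29.3% of its exon bases with Cdc23 on the opposite strand, and 40% of its reads were left out of the count over either strand, where its change was -0.49 (LRT FDR 0.627). The centromeric histone Cenpa was at 158, 135, 190 and 176 CPM and at 304, 166 and 190 CPM, a change of 0.41 (SE 0.235, LRT FDR 0.586), with replicate 1 alone above the EμMyc range. Kif23 had -0.41 (SE 0.258, LRT FDR 0.668), where replicate 1 at 64.5 CPM was the only tumor under 120 CPM, and Cenpi had -0.32 (SE 0.204, LRT FDR 0.67).

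Kif11, the motor that pushes spindle poles apart, was the only member whose call depended on a tumor in these comparisons. It was at 366, 315, 231 and 310 CPM in EμMyc and at 128, 436 and 185 CPM in EμMyc/Casp2-/- tumors, so that replicate 2 was the highest of all lymphomas and the other 2 were the lowest. With all tumors its log2 fold change was -0.29 (SE 0.321, LRT FDR 0.843), and without replicate 2 it was -0.95 (LRT FDR 0.0169). By role, medians in the lymphomas ran from -0.32 for central spindle and cytokinesis (4 genes) to -0.02 for CDK1 with its cyclins and phosphatases (6 genes), and all 4 spindle kinesins lay between -0.29 and -0.18 without passing the test.

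**Figure D3:**
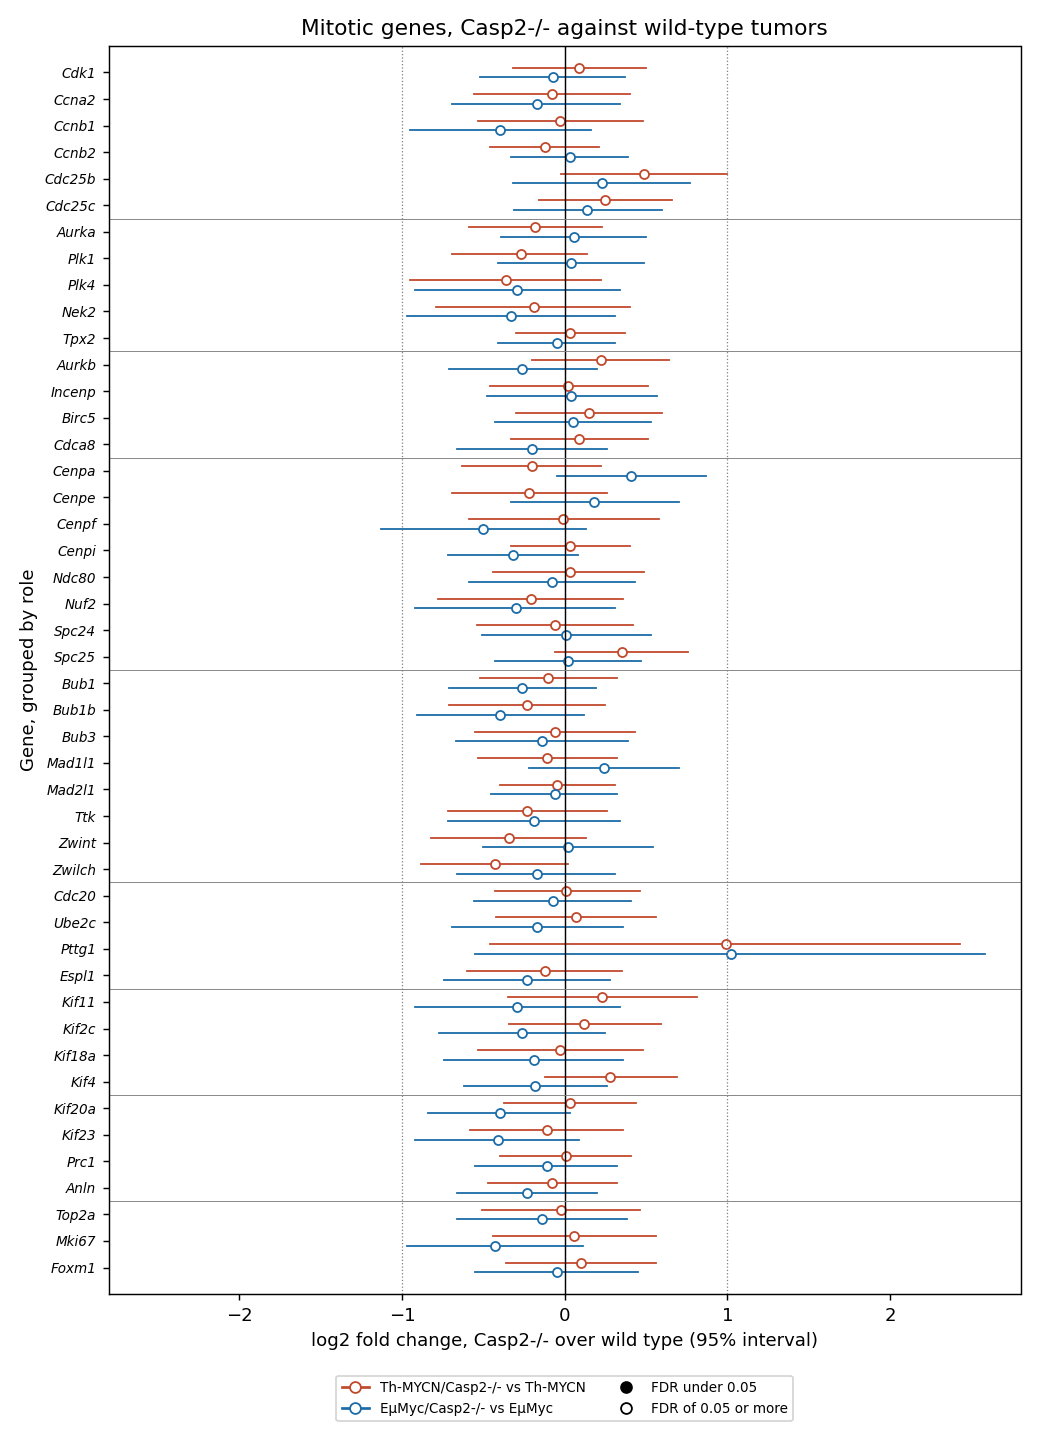
Log2 fold change of Casp2-/- over wild-type tumors for each of the 46 genes, in neuroblastoma (red) and lymphoma (blue), with 95% intervals. Open circles mark an LRT FDR of 0.05 or more, which holds for every gene, and apart from Pttg1 the points lie between -0.50 and 0.49.

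Whether loss of Casp2 acted differently in the tumor types was tested with an interaction term, the change in lymphoma minus that in neuroblastoma. None of the 46 was called by the LRT, by QLF or by DESeq2, beside 0.914% of all genes by the LRT and 0.0538% by QLF, and 0 members had an unadjusted LRT p under 0.05, against 8.96%. At the shares called by the LRT and QLF, few calls could fall in 46 genes. The smallest p belonged to Cenpa, with a difference of 0.62 on the log2 scale (SE 0.32, LRT FDR 0.57). Kif4, a motor on chromosome arms, followed with -0.46 (SE 0.305, LRT FDR 0.742), then the passenger complex kinase Aurkb with -0.48 (SE 0.317, LRT FDR 0.744) and Kif20a with -0.44 (SE 0.303, LRT FDR 0.774). The interval of the difference stayed within 2-fold for 32 of the 46 genes, and for the others it included larger differences. Without EμMyc/Casp2-/- replicate 2, Kif11 alone of the members was called, at -1.19 (LRT FDR 0.0298), beside 203 of all genes.

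Between the tumor types, members differed in both directions, 19 of the 46 (41.3%) beside 62.2% of all genes in the wild-type tumors and 16 (34.8%) beside 60.2% in the Casp2-/- tumors. In EμMyc against Th-MYCN tumors 12 members were called higher in lymphoma, 26.1% of the 46 beside 28.3% of all genes, and 7 were called lower, 15.2% beside 33.9%. QLF called the same 19, beside 60.3% of all genes. Groups did not overlap for 11 members that were higher and 7 that were lower, beside 26.4% and 32.9% of all genes. The median size of a difference was 0.392 on the log2 scale among members and 1.02 among all genes. Only 5 were DEGs, Cdc25b and Bub1b on the side of the lymphomas and Cdc25c, Spc25 and Zwint on that of the neuroblastomas, where 18.9% and 28.5% of all genes were DEGs.

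The same 5 were the DEGs when EμMyc/Casp2-/- was compared with Th-MYCN/Casp2-/-, beside 20.5% of all genes higher and 27.6% lower, in tumors that share no library with the first comparison. Bub1b was close to the 2-fold limit. With sex as a covariate it fell under it, at 0.90 in the wild-type (LRT FDR 1.12e-06) and 0.72 in the Casp2-/- tumors (LRT FDR 0.000197). It was also under the limit, at 0.89 to 0.99, in the Casp2-/- fits without EμMyc/Casp2-/- replicate 2 or 3 or without Th-MYCN/Casp2-/- replicate 1 or 2, and it was called in each of these fits. There 8 members were called higher in lymphoma, beside 27.7% of all genes, and 8 lower, beside 32.5%, and QLF called the same 16, beside 58.3% of all genes. Groups did not overlap for 4 higher and 8 lower members, beside 23.6% and 31.2% of all genes. Called higher in both genotypes were 6 members, Cdc25b, Nek2, Incenp, Bub1b, Mad2l1 and Zwilch, where 23.0% of all genes were. Called lower in both were 7, Cdc25c, Spc25, Zwint, Kif2c, Kif4, Prc1 and Foxm1, where 29.2% of all genes were. No member was called in opposite directions, and 24 were called in neither. Cdc25b, Cdc25c, Spc25, Bub1b, Zwint and Prc1 were called in each of the 15 fits that left out 1 tumor of the pair of groups compared. Of the others called in both genotypes, Incenp was called in 3 of the 8 wild-type and 2 of the 7 Casp2-/- fits. Mad2l1 was called in 4 and 3 of these, Zwilch in 3 and 6 and Foxm1 in 4 and 4. Kif2c and Kif4 were each called in 4 and 7, and Nek2 in 8 and 6.

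**Figure D4:**
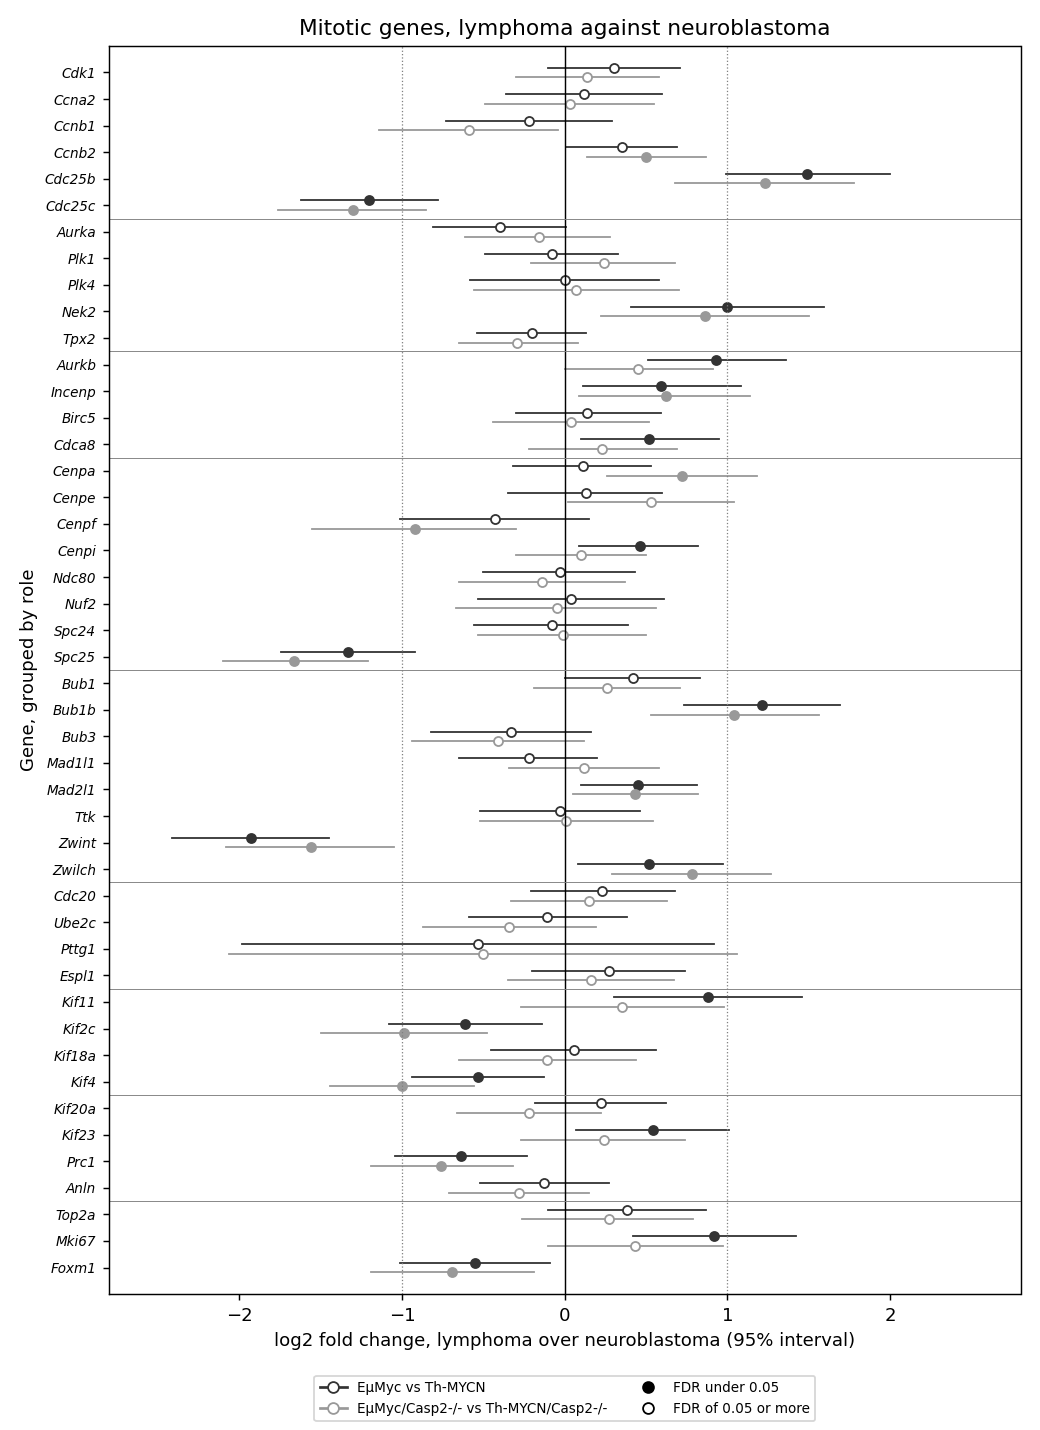
Log2 fold change of lymphoma over neuroblastoma for each of the 46 genes with 95% intervals, among wild-type (black) and Casp2-/- tumors (grey). Filled circles mark an LRT FDR under 0.05 and dotted lines a 2-fold difference, which only Cdc25b, Bub1b, Cdc25c, Spc25 and Zwint pass with a call in both genotypes.

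Among CDK1 and its regulators, the CDC25 phosphatases went opposite ways. Cdc25b was at 169, 327, 202 and 207 CPM in EμMyc and at 67.3 to 95.2 CPM in Th-MYCN tumors, a log2 fold change of 1.49 (SE 0.259, LRT FDR 6.8e-08, QLF FDR 9.65e-05). Cdc25c, the family member that drives CDK1 activation at mitotic entry, was at 25.4, 31.1, 45.4 and 27.1 CPM in EμMyc and at 67.4, 80.7, 72.7 and 75.7 CPM in Th-MYCN tumors, a change of -1.20 (SE 0.213, LRT FDR 1.06e-07, QLF FDR 7.36e-05). No tumor of either type entered the range of the other for either gene. Without Casp2 the changes were 1.23 for Cdc25b (LRT FDR 3.22e-05) and -1.30 for Cdc25c (LRT FDR 2.13e-07). The ratio of Cdc25b to Cdc25c counts was 4.45 to 10.5 in the 7 lymphomas and 0.828 to 1.55 in the 8 neuroblastomas. Cdk1, Ccna2 and Ccnb1 were not called in either comparison, and cyclin B2 (Ccnb2) was called higher in lymphoma among the Casp2-/- tumors, at 0.50 (LRT FDR 0.0128), beside 0.35 (LRT FDR 0.0663) among the wild-type tumors.

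Of the mitotic kinases, Aurka, Plk1, Plk4 and the Aurora A activator Tpx2 were called in neither comparison. Nek2, which splits the centrosomes before the spindle forms, was higher in lymphoma, at 174, 110, 308 and 144 CPM in EμMyc and 112, 93.8, 76.6 and 87.3 CPM in Th-MYCN tumors, a log2 fold change of 1.00 (SE 0.301, LRT FDR 0.0022). Its ranges met at 110 and 112 CPM, and replicate 3 of the EμMyc tumors was far above the rest. Among the Casp2-/- tumors it had 0.86 (LRT FDR 0.0144), and without EμMyc/Casp2-/- replicate 3 this was 0.44 (LRT FDR 0.243).

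The chromosomal passenger complex corrects faulty attachments and consists of Aurkb, Incenp, Birc5 (survivin) and Cdca8 (borealin). Of its 4 genes 3 were called higher in EμMyc than in Th-MYCN tumors, beside 28.3% of all genes. These were Aurkb at 0.93 (SE 0.215, LRT FDR 4.88e-05), Incenp at 0.59 (LRT FDR 0.0284) and Cdca8 at 0.52 (LRT FDR 0.0258). Birc5 was at 0.14 (LRT FDR 0.605). Aurkb was at 246, 178, 179 and 212 CPM in EμMyc and at 132, 105, 93.7 and 95.9 CPM in Th-MYCN tumors, with no overlap, and at 0.607 to 1.39 times the Birc5 count in the lymphomas against 0.521 to 0.843 times in the neuroblastomas. Among the Casp2-/- tumors, where 27.7% of all genes were called higher, only Incenp was called, at 0.62 (LRT FDR 0.0349). Its call held in 3 of the 8 wild-type fits that left out a tumor and in 2 of the 7 Casp2-/- fits. Aurkb was at 0.45 (LRT FDR 0.0792) among the Casp2-/- tumors. It too was called in 2 of the 7 fits, those without EμMyc/Casp2-/- replicate 1 and without Th-MYCN/Casp2-/- replicate 4.

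In the centromere and kinetochore, most subunits did not differ and Spc25 did. Spc25 was at 55.7, 48.6, 57.6 and 52.5 CPM in EμMyc, at 51.6, 61.8 and 49.8 CPM in EμMyc/Casp2-/-, at 130, 137, 149 and 124 CPM in Th-MYCN and at 146, 132, 258 and 152 CPM in Th-MYCN/Casp2-/- tumors. Every neuroblastoma was above every lymphoma, by 2.52-fold in the wild-type tumors (log2 fold change -1.33, SE 0.21, LRT FDR 1.93e-09) and 3.16-fold in the Casp2-/- tumors (-1.66, LRT FDR 2.6e-11). The other 3 subunits of its complex, which binds microtubules, were called in neither comparison, with log2 fold changes of -0.03 and -0.14 for Ndc80, 0.04 and -0.05 for Nuf2 and -0.08 and -0.01 for Spc24. The ratio of Spc25 to Ndc80 counts was accordingly 0.748 to 1 in the lymphomas and 1.81 to 3.52 in the neuroblastomas. Cenpi was called higher in EμMyc than Th-MYCN tumors, at 0.46 (LRT FDR 0.0252). Among the Casp2-/- tumors Cenpa was called higher, at 0.72 (LRT FDR 0.00422), beside 0.11 (LRT FDR 0.687) in the wild-type tumors. Cenpf was called lower there, at -0.92 (LRT FDR 0.00964), beside -0.43 (LRT FDR 0.203). The interaction, which tests these differences, called neither.

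The checkpoint genes included the member with the largest difference of all. Zwint, which is also known as a partner of SNAP-25 in neurons, was at 52.4, 53.4, 102 and 47.6 CPM in EμMyc and at 202, 241, 263 and 270 CPM in Th-MYCN tumors, 3.81-fold higher in neuroblastoma (log2 fold change -1.93, SE 0.244, LRT FDR 1.43e-13). In the Casp2-/- tumors it was at 69.5, 50.8 and 74.9 CPM and at 154, 205, 199 and 212 CPM, a 2.96-fold difference (LRT FDR 7.45e-08). Its values did not overlap between the tumor types, and EμMyc replicate 3, at 102 CPM, was the highest lymphoma. Bub1b, which encodes the checkpoint protein BubR1, went the other way, with 410, 409, 390 and 482 CPM in EμMyc and 152, 214, 143 and 222 CPM in Th-MYCN tumors (1.21, SE 0.243, LRT FDR 3.17e-06). Among the Casp2-/- tumors it was at 193, 410 and 360 CPM and at 134, 139, 144 and 206 CPM (1.04, LRT FDR 0.00018), and only EμMyc/Casp2-/- replicate 1 reached into the neuroblastoma range.

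The inhibitor subunit Mad2l1 had 0.45 (LRT FDR 0.0227) and 0.43 (LRT FDR 0.0451) in the wild-type and Casp2-/- comparisons, and Zwilch 0.52 (LRT FDR 0.0363) and 0.78 (LRT FDR 0.00332). With reads shared between strands left out, the values for Zwilch were 0.54 (LRT FDR 0.0481) and 0.78 (LRT FDR 0.00739). Bub1, Bub3, Mad1l1 and the kinase Ttk were called in neither comparison. Zwint and Zwilch were thus called in opposite directions.

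None of the 4 genes of anaphase promotion and sister separation, Cdc20, Ube2c, Pttg1 and separase (Espl1), was called in either comparison, where 62.2% and 60.2% of all genes were. Cdc20 was at 167 to 284 CPM in EμMyc and 131 to 212 CPM in Th-MYCN tumors, and at 189 to 202 and 148 to 237 CPM in the Casp2-/- groups, so its ranges overlapped throughout. Among spindle kinesins, Kif11 was called higher in EμMyc than Th-MYCN tumors at 0.88 (LRT FDR 0.00652), beside 0.35 (LRT FDR 0.342) among the Casp2-/- tumors. The microtubule depolymerase Kif2c and the chromokinesin Kif4 were lower in lymphoma in both genotypes, Kif2c at -0.61 (LRT FDR 0.0196) and -0.99 (LRT FDR 0.000497) and Kif4 at -0.53 (LRT FDR 0.0179) and by 1.99-fold (SE 0.224 on the log2 scale, LRT FDR 4.39e-05). With sex as a covariate the latter passed 2-fold, at -1.13 (LRT FDR 3.93e-06). Kif18a was called in neither.

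In the central spindle, Prc1 and Kif23, which bundle the microtubules between the separating chromosomes, went opposite ways. Prc1 was at 151, 96.8, 108 and 102 CPM in EμMyc and at 171, 195, 169 and 175 CPM in Th-MYCN tumors, a log2 fold change of -0.64 (SE 0.206, LRT FDR 0.0043), with no overlap, and it had -0.76 (LRT FDR 0.00201) among the Casp2-/- tumors. Kif23 had 0.54 (LRT FDR 0.0393) in the wild-type tumors, beside 0.24 (LRT FDR 0.436) in the Casp2-/- tumors, and the former was called in 2 of the 8 fits that left out a tumor. The cytokinesis scaffold Anln and Kif20a were called in neither comparison.

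Markers of proliferation gave different answers about the tumor types. Mki67 was higher in EμMyc, at 1330, 1180, 1440 and 1370 CPM against 641, 832, 625 and 713 CPM in Th-MYCN tumors (0.92, LRT FDR 0.000778). Top2a, at 946 to 1280 and 631 to 1120 CPM, was not called (0.38, LRT FDR 0.168), and Foxm1, a transcription factor that drives many of these genes, was lower in EμMyc (-0.55, LRT FDR 0.0336). In the Casp2-/- tumors Foxm1 was again lower in lymphoma (-0.69, LRT FDR 0.0138), whereas Mki67 had 0.43 (LRT FDR 0.161).

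The counts of calls moved with single tumors, although the 6 members named above did not. In EμMyc against Th-MYCN, 7 members were called higher without Th-MYCN replicate 3 or without replicate 4, and 4 were called lower without EμMyc replicate 1, EμMyc replicate 2 or Th-MYCN replicate 2. In the Casp2-/- comparison 13 were called higher without EμMyc/Casp2-/- replicate 1, 4 without EμMyc/Casp2-/- replicate 3 and 5 without Th-MYCN/Casp2-/- replicate 2. Over all tested genes, calls in either direction were 8510 to 8909 in these wild-type fits, beside 9252 with all tumors. They were 8261 to 8900 in these Casp2-/- fits, beside 8954.

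**Figure D5:**
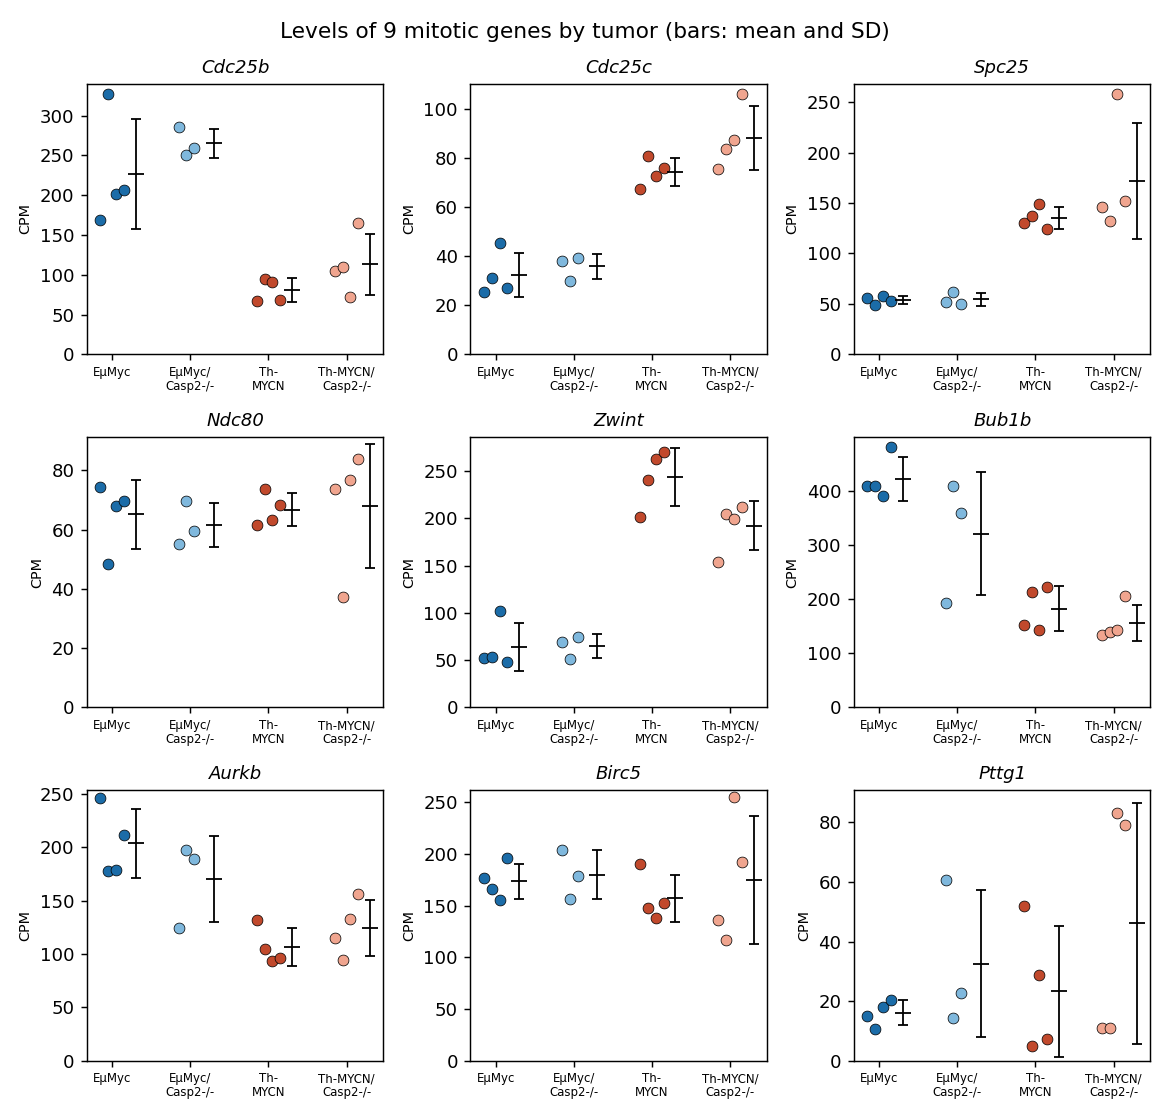
Levels of 9 mitotic genes in each tumor in CPM, with 1 point per tumor and bars for the mean and SD of each group. Cdc25b and Bub1b are higher in the lymphomas (blue) and Cdc25c, Spc25 and Zwint in the neuroblastomas (red), Ndc80 and Birc5 overlap throughout, and Pttg1 ranges from 5.08 to 83.3 CPM with no order by group.

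Related machinery was examined through 7 lists of genes that hold none of the 46. No gene of any list was called between genotypes in either tumor type, by the LRT, which called 0.894% of all genes in the neuroblastomas and 1.50% in the lymphomas, or by QLF, which called 0.0336% and 0.141%. At these shares few calls could fall in lists of this size. Between tumor types, the counts of the lists stand beside 28.3% of all genes called higher and 33.9% called lower in EμMyc than Th-MYCN, and 27.7% and 32.5% among the Casp2-/- tumors. The S phase list (30 genes) had 11 higher and 1 lower in EμMyc than Th-MYCN and 13 higher and 0 lower among the Casp2-/- tumors. The median log2 fold change of this list was 0.39 and 0.47, beside -0.04 and -0.05 over all genes. Pcna, the sliding clamp of DNA replication, had 1.34 (SE 0.211, LRT FDR 2.22e-09) in the wild-type tumors, and the helicase subunit Mcm4 had 1.37 (SE 0.269, LRT FDR 1.29e-06) in the Casp2-/- tumors. Condensin and cohesin genes (21) had 7 higher and 1 lower, then 6 and 0, led by the cohesin regulator Pds5a at 1.66 (LRT FDR 1.6e-06) and 1.80 (LRT FDR 9.75e-07).

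The remaining lists had calls in both directions, beside 62.2% and 60.2% of all genes called in either direction. Other centromere and kinetochore genes (23) had 3 higher and 4 lower, then 2 and 5, with the dynein recruiter Kntc1, a partner of Zwilch, at -0.99 (LRT FDR 4.88e-05) and -0.91 (LRT FDR 0.000863). The centromeric chaperone Hjurp had -1.25 (LRT FDR 2.42e-06) in the wild-type tumors. Genes of the anaphase-promoting complex (17) had 5 and 5, then 4 and 5, other G2/M genes (36) had 8 and 8, then 6 and 11, and centriole duplication genes (12) had 3 and 3 both times. MuvB, Myb and pocket protein genes (16) had 6 higher and 1 lower, then 4 and 1, with E2f4 at 1.61 (LRT FDR 8.4e-25) and 1.67 (LRT FDR 9.17e-24). Haspin (Gsg2), the kinase that marks histones for the passenger complex, was higher in lymphoma at 1.46 (LRT FDR 7.83e-05) and 1.30 (LRT FDR 0.001).

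Within groups, the members tended to move together from tumor to tumor. After removal of the group means, the median Pearson correlation over the 1035 pairs of members was 0.256 across the 15 tumors, beside 0.002 over all pairs of tested genes, and 76.2% of the member pairs were above 0. The points share libraries and the pairs of all genes were not matched by level, so this is a description without a test. Tpx2 had the highest mean correlation with the other members, 0.45, and Cdc25b the lowest, -0.07. Bub1 and Kif18a were the closest pair at 0.94, then Plk4 with Cenpe and Tpx2 with Bub1b at 0.91 each. Each gene of these pairs was lowest of its group in EμMyc/Casp2-/- replicate 1. There Bub1 was at 65.2 CPM, beside 140 and 120 CPM, and Kif18a at 16.4 CPM, beside 43.7 and 35.5 CPM. How far the pairs depend on that tumor was not tested. Cdc25c and Zwint, both higher in neuroblastoma, correlated at 0.90 within groups. EμMyc replicate 3 stood above the rest of its group in both. It was at 45.4 CPM for Cdc25c, beside 25.4 to 31.1 CPM, and at 102 CPM for Zwint, beside 47.6 to 53.4 CPM.

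The within-group SD on the log2 scale had a median of 0.322 among members and 0.446 among all tested genes, which were not matched by level. Among members Pttg1 stood out with 1.29, the next being Plk4 at 0.449. Pttg1 was at 15.1, 10.6, 18.1 and 20.5 CPM in EμMyc, at 60.8, 14.4 and 22.6 CPM in EμMyc/Casp2-/-, at 52, 5.08, 28.8 and 7.16 CPM in Th-MYCN and at 11, 11, 83.3 and 79 CPM in Th-MYCN/Casp2-/- tumors. High and low tumors occurred in every group but EμMyc, and the ranges of all groups overlapped. Of the other members, Birc5 was most like it within groups, at a correlation of 0.76, and Mki67 least, at -0.62. Separase, which Pttg1 restrains, was at 112 to 270 CPM.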

How the data were processed

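Tumor RNA was selected by poly(A) and sequenced as single-end reads. Alignment by the authors used STAR and the mm10 (GRCm38) genome, and the deposited raw counts per gene come in 3 columns, unstranded, first strand and second strand. The annotation release is not given in the sources used here. The second-strand counts were used, as in the study. They held 48.8% to 49.3% of the reads of both strands, so the libraries do not mark strand, and reads of genes that overlap on opposite strands cannot be told apart. A further EμMyc/Casp2-/- tumor that the study removed was not analysed here. The pairs of replicates differed by more than sampling noise (21 pairs).

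A gene was tested if 3 or more tumors exceeded 1 CPM (14880 of 23329), libraries were scaled by TMM, and group means of all 15 tumors were fitted in edgeR 4.0.16 (R 4.3.3). The main test was the likelihood ratio test, with Benjamini-Hochberg adjustment over all tested genes. CPM are TMM-scaled, and log2 CPM used a prior count of 2. SEs, and 95% intervals made from them, are on the log2 scale and take the fitted spread between tumors (dispersion) as known. The quasi-likelihood test, DESeq2 1.42.0, other scalings and filters, either-strand counts, fits of only the groups compared, sex as a covariate and fits without each tumor were alternatives. Sex was taken from the study's sample list, and the match of tumor EuMyc743b to its entry there was assumed. The split of the sexes between groups is not reported here. A floor of 3 reads was at 0.173 to 0.586 CPM, which covers counting error only. The tumors are from different mice. The fitting was tested on simulated data. The members and lists were chosen with earlier results of these data known. Full statistics are given, in each comparison, for up to 4 called members with the largest and up to 4 with the smallest log2 fold change or, where none was called, for the 4 with the smallest p, and other members are given by role. From each other list at most the 2 called genes with the largest change in each direction could be named.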

Additional observations from a re-analysis of the deposited data

Results flagged for a closer look

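In 138 sets of 4 tumors (46 genes in the groups of 4), 9 held a tumor whose gap to its nearest neighbour took up an unusually large share of the group's range by Dixon's criterion. Chance gives about 5% of such sets, which is near the share found, and the sets share tumors. These 9 came from 6 tumors, and no explanation was tested.

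The widest gap was for Mki67, at 447 CPM in Th-MYCN/Casp2-/- replicate 3 and 821 to 834 CPM in the others, a share of 0.975. The same tumor was at 1070 CPM for Top2a, the highest of its group, and stood high for Kif18a, at 37.8 CPM against 33.2 to 33.9 CPM (0.839). Th-MYCN/Casp2-/- replicate 4 stood high for Kif20a, at 319 CPM against 200 to 210 CPM (0.901), and for Bub1b, at 206 CPM against 134 to 144 CPM (0.837). Th-MYCN/Casp2-/- replicate 2 stood low for Ndc80, at 37.4 CPM against 73.8 to 83.8 CPM (0.841).

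Th-MYCN replicate 1 stood high for Anln, at 120 CPM against 98.5 to 101 CPM (0.857), and for Spc24, at 101 CPM against 65.7 to 70.2 CPM (0.845). Among the EμMyc tumors, replicate 2 stood high for the separase gene Espl1, at 270 CPM against 180 to 191 CPM (0.86), and replicate 3 for Zwint, at 102 CPM against 47.6 to 53.4 CPM (0.85).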

How the results depend on the processing

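No named member changed direction in a comparison it was named for, whereas the median over the members changed sign in all 4 comparisons of groups. Between genotypes and in the interaction, 0 members were called under every alternative run except leaving out EμMyc/Casp2-/- replicate 2. Leaving out 1 tumor at a time gave 0 to 1 members called lower in EμMyc/Casp2-/- than EμMyc and 0 to 1 in the interaction, the member being Kif11. The same fits called 77 to 571 and 55 to 322 of all tested genes. Leaving out 1 tumor gave 7 to 13 members called higher and 4 to 8 called lower in EμMyc than Th-MYCN, and 4 to 13 and 6 to 8 in the Casp2-/- comparison. Of all tested genes, 9252 and 8954 were called with all tumors. Leaving out 1 tumor gave 8510 to 8929 in the former comparison and 8261 to 8900 in the latter. The median log2 fold change of the members then ran from -0.247 to 0.013 between the lymphoma genotypes, from -0.092 to 0.033 between the neuroblastoma genotypes, from -0.023 to 0.171 between the wild-type tumor types and from -0.04 to 0.233 between the Casp2-/- tumor types. The median correlation among members ran from 0.202 to 0.279. With sex as a covariate, 6 members were called higher in EμMyc than Th-MYCN and 5 in the Casp2-/- comparison, where 5 were also called in a fit of only the 2 groups. With sex, 8575 and 8439 of all tested genes were called in either direction, beside 9252 and 8954 in the main fits. The fit of only the 2 Casp2-/- groups called 7863. The cause of the lower counts was not tested. Among named members Nek2 lost its call among the Casp2-/- tumors with sex as a covariate (0.74, LRT FDR 0.0661) and without EμMyc/Casp2-/- replicate 3 (0.44, LRT FDR 0.243), and Zwilch lost its call there without that tumor (0.60, LRT FDR 0.0509). No paired analysis was possible because the labels give mouse identifiers and no replicate numbers shared between groups. With 3 or 4 tumors a group, the median SE of a member was 0.239 between the neuroblastoma genotypes and 0.259 between the lymphoma genotypes, which limits what differences could be called.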
